A study of Sus scrofa with 17 samples.

Results

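The 9 genes described here are FBXO32, TRIM63, FOXO1, FOXO3, NR3C1, FKBP5, TSC22D3, KLF15 and CEBPD, a set known for the response of skeletal muscle to glucocorticoids and for muscle wasting. They were taken by symbol from the 31908 genes of the deposited count table, and all 9 were found and were among the 14203 genes with enough reads to be tested. The samples were longissimus muscle of male Large White × Duroc piglets, aged 28 days at the start, which were penned one by one, had 5 days of adaptation and were then pair-fed for 2 weeks. The Control diet (6 libraries) was made of wheat, maize and soybean meal with 0% seaweed, the UL diet (6 libraries) held 7% of the green seaweed Ulva lactuca, and the ULU diet (5 libraries) held 7% Ulva lactuca and 0.01% of a recombinant ulvan lyase, an enzyme that cuts the cell wall polysaccharide ulvan. Every library came from a different piglet of a single breed cross and sex, no diet held the enzyme without the seaweed, and the labels named no batch. Each library was a whole piece of muscle, so that fewer cells of a type and less RNA per cell cannot be told apart.

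Glucocorticoids such as cortisol enter the muscle fibre and bind the glucocorticoid receptor, encoded by NR3C1, which then moves to the nucleus and activates genes such as FKBP5, TSC22D3, KLF15 and CEBPD. FOXO1 and FOXO3 are transcription factors that insulin and growth factor signalling keep out of the nucleus. In wasting muscle FOXO factors, the receptor and KLF15 are known to act on FBXO32 and TRIM63, which encode atrogin-1 and MuRF1, the muscle ubiquitin ligases that mark proteins for the proteasome.

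Values are given as CPM, the reads of a gene scaled to a fixed number of counted reads after correction for library composition. The libraries held 16137365 to 26546810 counted reads. The muscle fibre gene ACTA1 was at 49400 CPM or more in every library. The share of counts on genes of the mitochondrial chromosome was 14.8% ± 0.697 (SD, n = 6) in Control, 11.6% ± 2.11 (n = 6) in UL and 10.2% ± 1.47 (n = 5) in ULU. The ULU and Control libraries did not overlap in this share (exact permutation test, two-sided, p = 0.00433), so that for ULU vs Control diet and mitochondrial share cannot be told apart. The share was also lower on average in UL than in Control (exact permutation test, two-sided, p = 0.0108), although UL 32, at 14.8%, reached into the Control range. Summed levels of the 6 muscle fibre markers that could be paired were 128400 to 197500 CPM in Control, 165200 to 203700 in UL and 174800 to 322900 in ULU (exact permutation p = 0.0173 for ULU vs Control), and their part in the results was not tested. Endothelial, fibroblast and satellite cell marker sums gave exact permutation p = 0.818, 0.255 and 0.217 in ULU vs Control. Fits with the mitochondrial share as a covariate are given beside the results whose sign or call they change. In ULU vs Control such a fit called 8 of all tested genes, beside 423 without the covariate, so a lost call is not particular to a gene.

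Between genes, levels were compared per kb of exon as mean CPM per kb over the 17 libraries. TRIM63 was the most abundant of the 9 genes at 36.04 ± 9.77 CPM per kb (SD, n = 17), followed by TSC22D3 at 16.3 ± 4.09 and NR3C1 at 10.2 ± 1.68. FKBP5 (6.18 ± 3.51), FBXO32 (4.98 ± 2.97), CEBPD (3.50 ± 2.23) and FOXO3 (3.32 ± 0.388) came next, and neighbours from NR3C1 down to FOXO3 in this order overlapped within 1 SD. FOXO1 followed at 1.93 ± 0.502 CPM per kb and KLF15 was lowest at 0.740 ± 0.373. The ligase TRIM63 was thus present at a higher level per kb than its partner FBXO32 in these muscles, and the SD intervals of these 2 genes did not overlap.

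The genes also differed in how much piglets on the same diet varied. The biological coefficient of variation, the relative spread between libraries of a diet estimated by edgeR, was 0.498 for FBXO32, 0.487 for KLF15, 0.451 for CEBPD and 0.396 for FKBP5, against a median of 0.244 over all tested genes. The ligase TRIM63 (0.250) was near that median. TSC22D3 (0.210), FOXO1 (0.189), NR3C1 (0.170) and FOXO3 (0.141) lay below it. For FBXO32, 88.4% of the tested genes varied less, and for FOXO3 this share was 6.65%. Over all 17 libraries, across diets, the highest level was 10.5 times the lowest for CEBPD, 10.1 times for KLF15, 8.71 times for FBXO32 and 1.41 times for FOXO3.

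**Figure D1:**
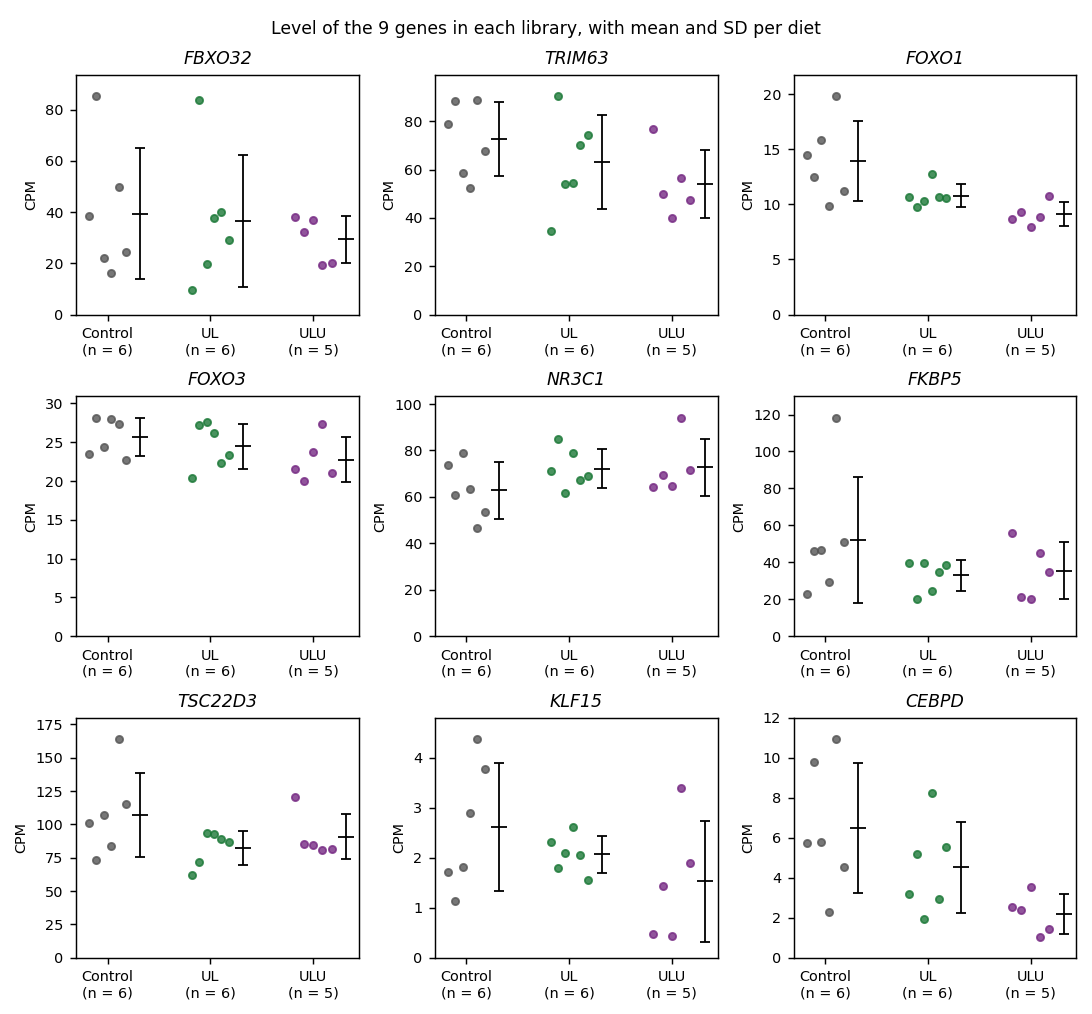
Level of each of the 9 genes in CPM (linear axis from 0), 1 point per library, for Control (n = 6), UL (n = 6) and ULU (n = 5). The bar beside each diet is the mean with its SD. All diets overlap for every gene, the ULU points of CEBPD lie at 3.51 CPM or below, and the Control point of FKBP5 at 118 CPM stands apart.

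The diets were compared for each gene to ask whether the seaweed, alone or with the lyase, went with a different level of these transcripts. In ULU vs Control, 2 of the 9 genes passed the test (adjusted p below 0.05), FOXO1 and CEBPD, and both were lower. Over all tested genes 2.98% passed, 0.993% of all tested genes as lower and 1.99% as higher. At an unadjusted p under 0.05 there were 2 of the 9 genes, beside 18.9% of all tested genes. In UL vs Control 0 of the 9 passed in edgeR and 0 of the 8 to which DESeq2 gave an adjusted p (all but KLF15), with 2 of 9 at an unadjusted p under 0.05, where edgeR called 0% of all tested genes and 10.8% had an unadjusted p under 0.05. In ULU vs UL 0 of the 9 passed in edgeR, with 1 of 9 at an unadjusted p under 0.05, where edgeR called 0.0352% of all tested genes and 10.8% had an unadjusted p under 0.05. DESeq2 gave an adjusted p there to 6 of the 9 when fitted on the 2 diets and to 3 on all 17 libraries, in neither case to CEBPD, FOXO1 or KLF15, and called 0 of those it tested. The fitted log2(fold change) was below 0 for 8 of 9 genes in UL vs Control (50.5% of all tested genes). It was below 0 for 8 of 9 in ULU vs Control (53% of all tested genes) and for 6 of 9 in ULU vs UL (53% of all tested genes). The median log2(fold change) of the 9 genes was -0.34, -0.42 and -0.22, beside -0.00266, -0.028 and -0.0215 over all tested genes. The comparisons share libraries, the Control diet in the first 2 and the ULU diet in the last 2, so their directions are not independent. The 9 genes were chosen with earlier results of these data known, so their counts beside all tested genes are a description and not a test. The number of the 9 genes without overlap between diets was 0 in each comparison, while 3.39% of all tested genes had none in ULU vs Control, as did 1.75% in ULU vs UL and 0.852% in UL vs Control.

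**Figure D2:**
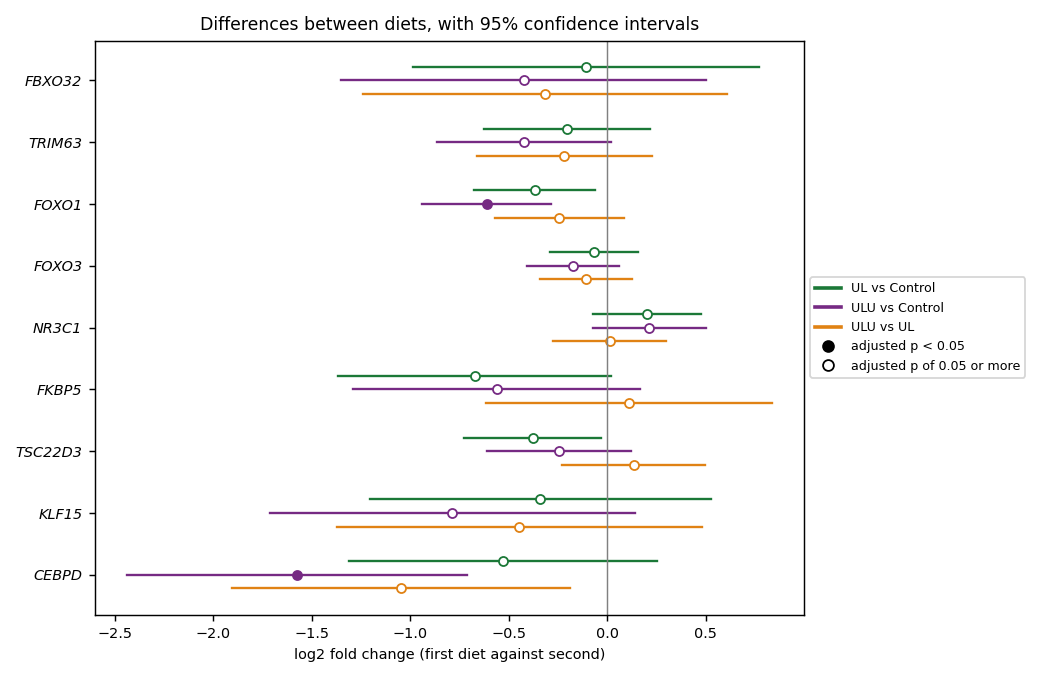
Log2(fold change) of each of the 9 genes in the 3 comparisons (horizontal axis), with its 95% confidence interval from the edgeR fit. Filled points passed the test: FOXO1 at -0.61 and CEBPD at -1.57, both in ULU vs Control.

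FOXO1 (ENSSSCG00000009370; Sscrofa11.1 chromosome 11, 15317124–15410473, minus strand) encodes a FOXO factor that drives genes of protein breakdown, autophagy and fuel switching. The Control libraries ran from 9.88 CPM to 19.8 CPM with a median of 13.5, and the UL libraries from 9.77 to 12.8 with a median of 10.6. The ULU libraries were at 8.65, 9.29, 7.97, 8.87 and 10.8 CPM. As many as 4 of these 5 libraries lay below every Control library, and only ULU 44 reached into the Control range. Mean levels were 13.9 ± 3.59 CPM in Control, 10.8 ± 1.02 in UL and 9.12 ± 1.05 in ULU (SD, n = 6, 6 and 5). In ULU vs Control the log2(fold change) was -0.61 (SE 0.16, 95% interval -0.94 to -0.28, edgeR adjusted p = 0.0414). In UL vs Control it was -0.37 (95% interval -0.68 to -0.06, edgeR adjusted p = 0.378), and in ULU vs UL -0.24 (95% interval -0.57 to 0.08, edgeR adjusted p = 0.622), neither of which passed. The ULU vs Control call lay close to the threshold. It was lost in 10 of 17 fits that left out 1 library (Control 21, 22 or 23, UL 28, 29 or 31, or ULU 40, 41, 42 or 43, edgeR adjusted p = 0.0522 to 0.0901), with the log2(fold change) between -0.69 and -0.48 in all 17. With the mitochondrial share as a covariate the value was -0.54 (edgeR adjusted p = 0.479).

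CEBPD (ENSSSCG00000032367; chromosome 4, 79872421–79873989, plus strand) encodes C/EBPδ, a transcription factor induced by glucocorticoids and by inflammatory cytokines. It was at 2.29 to 10.9 CPM in Control (median 5.75) and at 1.96 to 8.25 CPM in UL (median 4.20). The ULU libraries were at 2.53, 2.40, 3.51, 1.04 and 1.41 CPM. Of the Control libraries only Control 24, at 2.29 CPM, lay within the ULU range. The means were 6.50 ± 3.25, 4.51 ± 2.29 and 2.18 ± 0.981 CPM for Control, UL and ULU. CEBPD was 2.98-fold lower in ULU than in Control (log2(fold change) -1.57, SE 0.41, 95% interval -2.44 to -0.71, edgeR adjusted p = 0.0458), and it was the single member among the DEGs, the genes that also had an absolute log2(fold change) of at least 1, which were 0.415% of all tested genes. In ULU vs UL the log2(fold change) was -1.05 (95% interval -1.90 to -0.19, edgeR adjusted p = 0.373), and in UL vs Control -0.53 (95% interval -1.31 to 0.25, edgeR adjusted p = 0.660). Without 1 library, the ULU vs Control call was lost in 12 of 17 fits (Control 21, 22, 23, 25 or 26, UL 28, 31 or 32, or ULU 40, 41, 43 or 44, edgeR adjusted p = 0.0522 to 0.114), while the log2(fold change) stayed between -1.82 and -1.36. With the mitochondrial share as a covariate it was -1.25 (edgeR adjusted p = 0.577). The gene had 21 to 242 reads per library. Adipocyte and leukocyte markers were also lower on average in ULU than in Control: summed levels of the 8 adipocyte markers were 249 to 1050 CPM in Control and 207 to 428 CPM in ULU (exact permutation p = 0.225), and those of the 9 leukocyte markers 36.8 to 161 CPM and 22.5 to 146 CPM (exact permutation p = 0.299). The 1050 CPM was that of Control 24, the Control library lowest in CEBPD, and the next Control library held 480.5 CPM. Control 25, the highest in CEBPD, held 48.7 CPM of leukocyte markers, whereas Control 22, next at 9.76 CPM of CEBPD, held 127.6 CPM. ULU 43, the lowest library in CEBPD, held the 22.5 CPM of leukocyte markers. ULU 42, the highest ULU library in CEBPD, held the 146 CPM of leukocyte markers and the 207 CPM of adipocyte markers. LEP had 0 reads in 7 libraries and PCK1 in 4 among the adipocyte markers, and LYZ had 0 reads in all 17 and MS4A1 in 7 among the leukocyte markers. Their part in the CEBPD result was not tested.

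FOXO3 (ENSSSCG00000004387; chromosome 1, 74628217–74760328, plus strand), the FOXO factor best known for driving FBXO32, was the least variable of the 9. Control libraries held 22.7 to 28.1 CPM (median 25.9) and UL libraries 20.3 to 27.6 CPM (median 24.8). ULU libraries held 21.6, 20.01, 23.7, 27.3 and 21.1 CPM. The diets overlapped over nearly the whole range. The log2(fold change) was -0.07 (95% interval -0.29 to 0.15) in UL vs Control, -0.17 (-0.41 to 0.06) in ULU vs Control and -0.11 (-0.34 to 0.13) in ULU vs UL, with edgeR adjusted p = 0.866, 0.425 and 0.802. With the mitochondrial share as a covariate the first 2 values turned to 0.08 and 0.04, and neither passed. These intervals keep any difference between diets in FOXO3 within a narrow range, whereas those of FBXO32 are wide.

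FBXO32 (ENSSSCG00000005981; chromosome 4, 15895351–15930940, plus strand), which encodes atrogin-1, the F-box subunit of a ubiquitin ligase that acts on muscle growth and translation factors, ran from 16.4 to 85.2 CPM in Control (median 31.4). In UL it ran from 9.78 to 83.6 CPM (median 33.3), and the ULU libraries were at 38.2, 32.2, 37.0, 19.4 and 20.1 CPM. Control 22 and UL 28 stood at 85.2 and 83.6 CPM, above all other libraries, and UL 27 was the lowest. None of the comparisons passed: the log2(fold change) was -0.11 (95% interval -0.98 to 0.77) in UL vs Control, -0.42 (-1.35 to 0.50) in ULU vs Control and -0.32 (-1.24 to 0.61) in ULU vs UL, with edgeR adjusted p = 0.958, 0.645 and 0.861. The direction rested on single libraries. In UL vs Control it became 0.28 without Control 22, 0.09 without UL 27 and 0.02 without UL 29, and in ULU vs UL 0.11 without UL 28. In ULU vs Control it was -0.03 to -0.58 over the 17 fits that each left out 1 library, and with the mitochondrial share as a covariate the value was 0.59 there, 0.11 in ULU vs UL and 0.48 in UL vs Control, none of which passed.

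TRIM63 (ENSSSCG00000027684; chromosome 6, 83492633–83507499, minus strand), which encodes MuRF1, a RING-type ligase of the sarcomere that acts on thick filament proteins, was at 52.4 to 88.8 CPM in Control (median 73.4). It was at 34.5 to 90.4 CPM in UL (median 62.4) and at 76.9, 49.9, 40.0, 56.6 and 47.3 CPM in ULU. As many as 3 of the 5 ULU libraries lay below all Control libraries, but ULU 40 was above the Control median. The means were 72.5 ± 15.3, 63.0 ± 19.5 and 54.1 ± 14.04 CPM. The difference did not pass in ULU vs Control (log2(fold change) -0.42, SE 0.21, 95% interval -0.87 to 0.02, edgeR adjusted p = 0.291). It was -0.20 (-0.63 to 0.22, edgeR adjusted p = 0.768) in UL vs Control and -0.22 (-0.66 to 0.23, edgeR adjusted p = 0.788) in ULU vs UL. With the mitochondrial share as a covariate the value was 0.06 in ULU vs Control and 0.08 in UL vs Control, neither of which passed.

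NR3C1 (ENSSSCG00000014401; chromosome 2, 144822937–144956095, minus strand), the glucocorticoid receptor itself, was the one gene of the 9 with a mean above Control in both seaweed diets. Control libraries held 46.4 to 79.0 CPM (median 62.2), UL libraries 61.6 to 85.1 CPM (median 70.0) and ULU libraries 64.1, 69.3, 64.8, 94.0 and 71.6 CPM. All UL and ULU libraries exceeded the lowest 3 Control libraries, but 2 of the 6 Control libraries, 21 and 23, lay above most of them. The log2(fold change) was 0.20 (95% interval -0.07 to 0.47, edgeR adjusted p = 0.624) in UL vs Control and 0.21 (-0.07 to 0.50, edgeR adjusted p = 0.430) in ULU vs Control, and neither passed. In ULU vs UL it was 0.01 (-0.27 to 0.30, edgeR adjusted p = 0.987), and its sign turned with upper quartile scaling (-0.02) and without UL 29, 31 or 32 or ULU 43.

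FKBP5 (ENSSSCG00000001549; chromosome 7, 31440821–31585350, minus strand) encodes a co-chaperone of the receptor complex that lowers its affinity for hormone and is itself induced by it. Control libraries held 22.9 to 118 CPM (median 46.3), UL libraries 20.4 to 39.7 CPM (median 36.6) and ULU libraries 56.0, 21.3, 20.1, 44.9 and 35.0 CPM. The 118 CPM of Control 25 was far above the next Control library, at 51.0 CPM, and the remaining libraries of all diets overlapped. The log2(fold change) was -0.67 (95% interval -1.37 to 0.02, edgeR adjusted p = 0.478) in UL vs Control, -0.56 (-1.29 to 0.17, edgeR adjusted p = 0.410) in ULU vs Control and 0.11 (-0.61 to 0.84, edgeR adjusted p = 0.946) in ULU vs UL. Without Control 25 the first 2 values became -0.25 and -0.14, and without ULU 40 the last became -0.12.

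TSC22D3 (ENSSSCG00000030241; chromosome X, 88171329–88233964, minus strand) encodes GILZ, a leucine zipper protein that carries part of the anti-inflammatory action of glucocorticoids. The Control libraries were at 73.2 to 164 CPM (median 103.8) and the UL libraries at 62.2 to 93.4 CPM (median 87.6). The ULU libraries were at 120.5, 85.6, 84.4, 81.1 and 81.4 CPM. As many as 4 of the 6 Control libraries lay above every UL library, and ULU 40 stood apart from the other 4 ULU libraries. The log2(fold change) was -0.38 (95% interval -0.72 to -0.03, edgeR adjusted p = 0.425) in UL vs Control, -0.24 (-0.61 to 0.12, edgeR adjusted p = 0.485) in ULU vs Control and 0.13 (-0.23 to 0.50, edgeR adjusted p = 0.850) in ULU vs UL. Without Control 25 the first 2 were -0.22 and -0.08. Its symbol was assigned by position rather than by gene ID.

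KLF15 (ENSSSCG00000036742; chromosome 7, 53877813–53890546, minus strand) encodes a Krüppel-like factor that drives amino acid catabolism in muscle. It was the scarcest of the 9, with 10 to 97 reads per library. Control libraries held 1.13 to 4.37 CPM (median 2.36), UL libraries 1.56 to 2.61 CPM (median 2.07) and ULU libraries 0.481, 1.43, 0.433, 3.40 and 1.90 CPM. ULU 40 and ULU 42 were the 2 lowest of the 17 libraries, while ULU 43 was the third highest. The log2(fold change) was -0.34 (95% interval -1.20 to 0.52, edgeR adjusted p = 0.816) in UL vs Control, -0.79 (-1.71 to 0.14, edgeR adjusted p = 0.353) in ULU vs Control and -0.45 (-1.37 to 0.48, edgeR adjusted p = 0.791) in ULU vs UL. None passed. Leaving out 1 library gave -0.50 (without Control 22) to -0.13 (without Control 25) in UL vs Control, -1.33 (without ULU 43) to -0.54 (without ULU 42) in ULU vs Control and -0.98 to -0.20 in ULU vs UL without the same 2 libraries. With the mitochondrial share as a covariate UL vs Control turned to 0.02.

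Single piglets were highest or lowest for several of the genes. Control 25 was the highest of the 17 libraries for 5 genes (FOXO1, FKBP5, TSC22D3, KLF15 and CEBPD) and the lowest for NR3C1. It was also the highest for 3 of 27 other genes of the glucocorticoid pathway and the lowest for 0 of them. This was not particular to Control 25: ULU 40 was the highest for 4 of these 27 and UL 32 for 3. Control 22, UL 29, UL 31 and ULU 41 were also the lowest for 0 of them. UL 27 was the lowest for 3 genes (FBXO32, TRIM63 and TSC22D3), and ULU 42 for FOXO1, FKBP5 and KLF15. Control 22 was the highest for FBXO32 and FOXO3, UL 28 for TRIM63 and ULU 43 for NR3C1. Control 25 had a mitochondrial share of 15.9%, the highest of the Control libraries, and a summed fibroblast marker level of 3175 CPM, the lowest of them. It was also the deepest Control library, with 23430000 counted reads beside 17770000 in Control 26, the next. UL 27 had the lowest mitochondrial share of UL, 8.64%. The part of these traits in the positions of the 2 libraries was not tested.

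**Figure D3:**
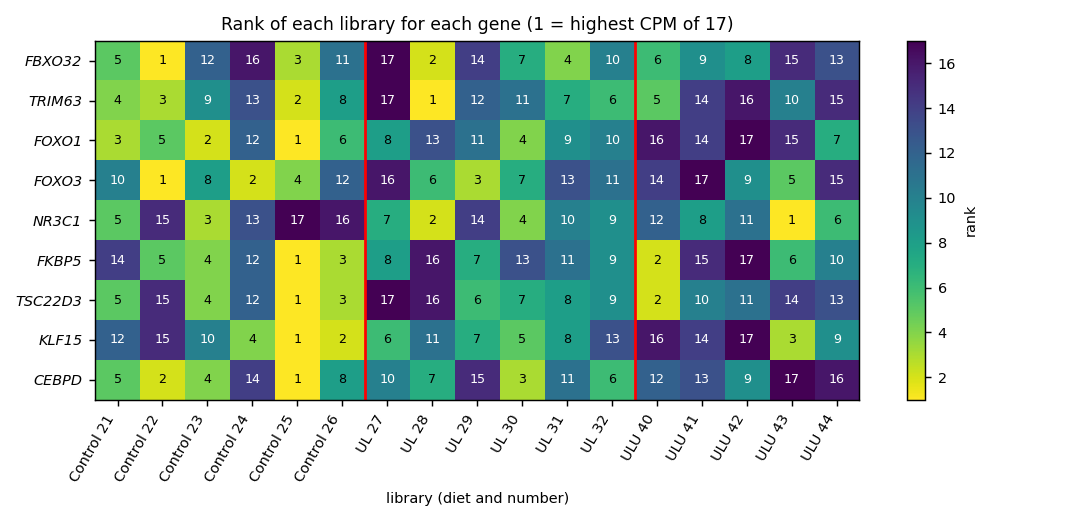
Rank of each library (columns, by diet, red lines between diets) for each of the 9 genes (rows), 1 being the highest CPM of the 17 libraries and 17 the lowest. Control 25 holds rank 1 for 5 genes and rank 17 for NR3C1, and UL 27 holds rank 17 for 3 genes.

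To see which of the genes moved together between piglets of the same diet, log2 CPM was centred on each diet's mean and the 36 pairs were correlated over the 17 libraries. The ligases FBXO32 and TRIM63 had the highest correlation (Pearson r = 0.78, permutation p = 0.00113, adjusted p = 0.0407 over the 36 pairs; Spearman rho = 0.79, permutation p = 0.00114, adjusted p = 0.041), and theirs was the single pair that passed. Without Control 22 and UL 27, the libraries farthest from the FBXO32 median, r was 0.64 (permutation p = 0.0167, adjusted p = 0.301), and the pair no longer passed. Leaving out the extremes of a gene narrows its range and leaves fewer libraries. The fall therefore cannot show that the call rested on these 2 piglets in particular. FBXO32 and CEBPD came next (r = 0.68, permutation p = 0.00564, adjusted p = 0.102; rho = 0.70, permutation p = 0.00569, adjusted p = 0.102), with r = 0.72 without the same 2 libraries. FKBP5 and TSC22D3, both receptor targets, had r = 0.56 (permutation p = 0.0514, adjusted p = 0.463; rho = 0.46, permutation p = 0.0786, adjusted p = 0.707) and r = 0.25 without Control 25 and ULU 42. FBXO32 and KLF15 had a negative value (r = -0.41, permutation p = 0.0394, adjusted p = 0.463; rho = -0.34, permutation p = 0.170, adjusted p = 0.811), with r = -0.31 without Control 22 and UL 27. The receptor gene NR3C1 had r = -0.49 with TSC22D3 (permutation p = 0.0929, adjusted p = 0.464) and -0.47 with FKBP5 (permutation p = 0.109, adjusted p = 0.464). Without Control 25 and ULU 40 the first was -0.12, and without Control 25 and ULU 42 the second was -0.36. KLF15 and CEBPD had r = -0.43 (permutation p = 0.0996, adjusted p = 0.464). FOXO3 and FBXO32, factor and known target, had r = 0.31 (permutation p = 0.265, adjusted p = 0.729; rho = 0.17, permutation p = 0.542, adjusted p = 0.811) and r = -0.11 without Control 22 and UL 27. Of the 36 pairs, 23 had an r above 0.

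**Figure D4:**
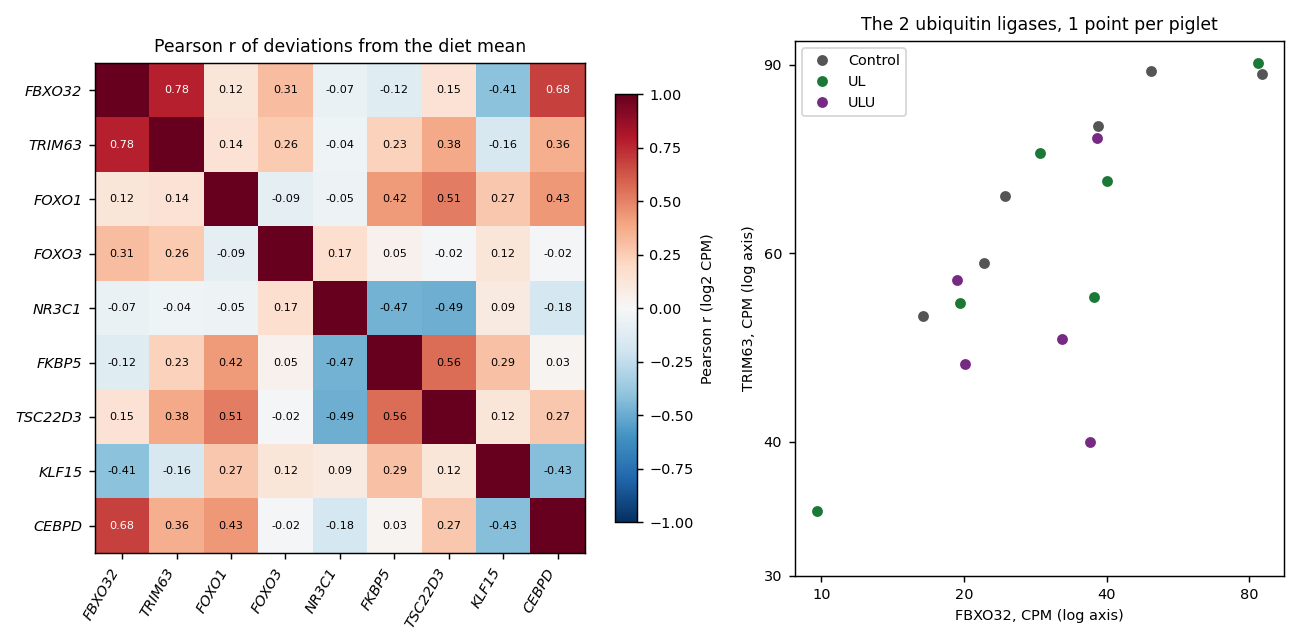
Left, Pearson r between the 9 genes over 17 libraries after centring log2 CPM on each diet's mean (red positive, blue negative). Right, CPM of FBXO32 against TRIM63 with both axes on a log scale, 1 point per piglet and colours for the diets: the ligases have r = 0.78 within diets, with UL 27 at the lower left.

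Other genes of the same pathways, taken from lists made for this work, were counted in ULU vs Control, where 2.98% of all tested genes were called. The lists were chosen with earlier results of these data known, so these counts are a description and not a test of the pathways. Of 27 other genes of glucocorticoid action, 3 fell and 0 rose, with a median log2(fold change) of 0.02 beside -0.028 over all tested genes. PER1, a clock repressor that the receptor is known to induce, was at 27.3 to 60.4 CPM in Control, 16.5 to 23.4 in UL and 4.25 to 17.7 in ULU, with no overlap of ULU and Control (log2(fold change) -1.70, SE 0.28, edgeR adjusted p = 0.00502). GLUL, glutamine synthetase, fell from 254.8 ± 71.0 to 126 ± 34.7 CPM (log2(fold change) -1.01, SE 0.20, edgeR adjusted p = 0.0127). PDK4, a kinase that restrains glucose oxidation, fell from 17.3 ± 12.98 to 5.45 ± 1.63 CPM (log2(fold change) -1.67, SE 0.40, edgeR adjusted p = 0.0336), and this call was lost without Control 22 or ULU 40, 41, 42 or 43 (edgeR adjusted p = 0.0530 to 0.0794). At an unadjusted p under 0.05 there were 9 of the 27 in ULU vs Control (7 lower), beside 18.9% of all tested genes. In the other comparisons 0 of these 27 passed in edgeR. There 5 (2 lower) had an unadjusted p under 0.05 in ULU vs UL and 10 (8 lower) in UL vs Control, beside 10.8% of all tested genes in each.

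Of 22 other genes of the ubiquitin system that are linked to atrophy, 1 rose and 1 fell. CBLB, a ligase that targets insulin signalling, fell from 45.9 ± 8.36 CPM in Control to 27.3 ± 4.42 in ULU (log2(fold change) -0.75, SE 0.14, edgeR adjusted p = 0.0107). ASB2, the substrate-binding subunit of a ligase of muscle, rose from 131 ± 34.8 to 249.6 ± 44.2 CPM (log2(fold change) 0.93, SE 0.19, edgeR adjusted p = 0.0142), with the lowest ULU library at 209.9 CPM and the highest Control library at 186.5. Of 24 FOXO family and FOXO-linked genes 0 passed in edgeR, with 6 at an unadjusted p under 0.05 (18.9% of all tested genes): SOD2, the mitochondrial superoxide dismutase, had a log2(fold change) of 0.53 (edgeR adjusted p = 0.0849), the mitophagy receptor gene BNIP3 0.66 (0.141) and the autophagosome gene GABARAPL1 -0.51 (0.129). DESeq2 called SOD2, which edgeR did not (DESeq2 adjusted p = 0.00445 on the 2 diets). With the mitochondrial share as a covariate SOD2 had 0.20 (edgeR adjusted p = 0.826). With the mitochondrial share as a covariate the calls of PER1, GLUL, PDK4, CBLB and ASB2 were lost (edgeR adjusted p = 0.230, 0.461, 0.625, 0.387 and 0.250). The log2(fold change) of PER1, GLUL, PDK4, CBLB and ASB2 was then -1.52, -0.69, -0.99, -0.56 and 1.06, so that GLUL and PDK4 moved the most towards 0 and ASB2 moved away from it.

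**Figure D5:**
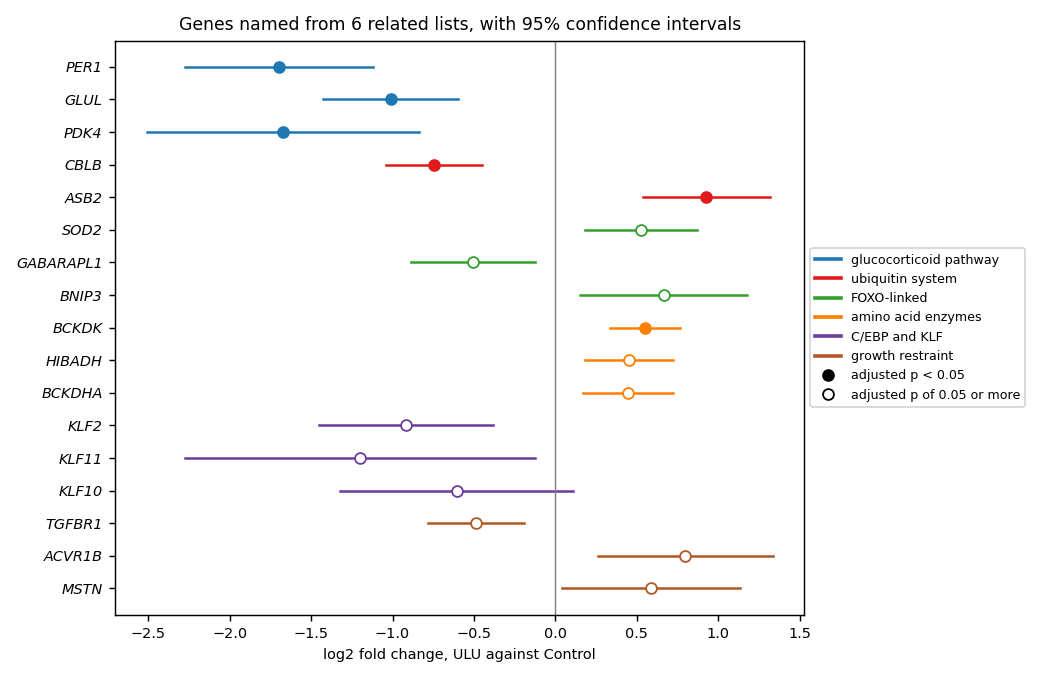
Log2(fold change) in ULU vs Control (horizontal axis) with its 95% confidence interval for 17 genes named from 6 related lists (colours). Filled points passed the test: PER1, GLUL, PDK4 and CBLB were lower and ASB2 and BCKDK higher in ULU.

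For each of the 9 genes the 3 genes with the most similar log2 CPM over the 17 libraries were sought among the tested genes with a symbol, by Pearson r and as a description. FBXO32 was most like CCPG1 (r = 0.77), TRIM63 (0.75) and PRKCI (0.74), so that its partner ligase was second among the tested genes with a symbol. By deviations from the diet means TRIM63 was at place 4 (r = 0.78). Genes most like TRIM63 included HOPX (0.84) and ARRDC2 (0.78). FOXO1 was most like the clock repressor gene CIART (0.86), B4GALT5 (0.83) and PER1 (0.79). With deviations from the diet means the r of PER1 with FOXO1 was 0.49, at place 424 among the tested genes with a symbol, and that of CIART was 0.77, at place 8. CEBPD was most like PIK3IP1 (0.83), PLEKHA5 (0.82) and POU6F1 (0.81). FOXO3 was most like THG1L (0.81), ARFIP1 (0.79) and CCNT1 (0.73), and NR3C1 like SAMTOR (0.84), MLLT1 (0.82) and MYH14 (0.80). FKBP5 was most like SCRG1 (0.81), DDHD1 (0.78) and EFCAB5 (0.77), and TSC22D3 like VHL (0.77), the insulin-responsive glucose transporter gene SLC2A4 (0.73) and VCPKMT (0.72). KLF15 was most like LUC7L (0.80), SYNE3 (0.78) and CTH (0.76). These libraries share diet and depth as well as the genes' own levels, and with so many candidates high values can arise from the search alone.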

How the data were processed

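Total RNA of longissimus muscle was sequenced as single reads of 75 nt on an Illumina NextSeq instrument. Per the labels and the study's methods the authors trimmed reads with fastp, aligned them to Sscrofa11.1 with HISAT2 and counted reads in exons with featureCounts (2.0.1 in the file header, Subread 1.5.1 in the notes). The deposited values are raw counts per Ensembl 104 gene, with no normalization. Strand settings were not given in the sources used here, and a column of the mean over all libraries was not used. RNA came from 6 piglets of 10 per diet, and 5 ULU libraries were analysed here. The diets shared no replicate numbers. The closest pair of libraries of a diet differed far beyond counting noise (chi-square per gene 21.04), so each counts as a separate sample.

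Symbols came from the gene ID for 8 of the 9 genes. TSC22D3 was paired with RefSeq by position (at least 50% reciprocal overlap). Chromosome, start and end are those of the count file on Sscrofa11.1. The 9 genes share no exon bases with another gene. No promoter or protein sequence was analysed here.

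The counts were analysed in edgeR 4.0.16 (R 4.3.3) with filterByExpr, TMM factors and the quasi-likelihood F test, in a single model of all 17 libraries with 3 contrasts and Benjamini-Hochberg adjustment over 14203 genes. A gene passed at an adjusted p below 0.05, and a DEG also had an absolute log2(fold change) of at least 1. The standard error was taken from the fold change and F, and intervals are 95%. Log2 CPM used a prior count of 2. A level of 3 reads, the limit that a count of 0 allows, was 0.13 to 0.195 CPM, for counting error only. Correlations used 100000 permutations within diets (scipy 1.17.1). The fit was tested on simulated data. DESeq2 1.42.0, other size factors, other filters, a robust fit, edgeR on 2 diets, the mitochondrial share as a covariate and leaving out each library were alternatives. Named genes were the 9, the genes of each related list that passed or, where under 3 did, the 3 with the smallest p in ULU vs Control, and the 3 most similar genes of each of the 9. Of these, 2 are not reported here. The 9 genes and all lists were chosen with earlier results of these data known. Of 47 marker genes, 40 were paired with an ID.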

Additional observations from a re-analysis of the deposited data

Results flagged for a closer look

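Of the 27 sets of values formed by 9 genes in 3 diets, 4 held a library apart from the others by Dixon's test at the 95% level, where chance gives about 1 in 20. FKBP5 was at 118.2 CPM in Control 25, with the next Control library at 51.02 CPM. FOXO1 was at 12.75 CPM in UL 30, with the next UL library at 10.66 CPM. TSC22D3 was at 120.5 CPM in ULU 40, with the next ULU library at 85.57 CPM. NR3C1 was at 94.03 CPM in ULU 43, with the next ULU library at 71.59 CPM. In all 4 the library apart was the highest of its diet. Neither ULU 40 nor ULU 43 stood apart in any other of the 9 genes by this test.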

How the results depend on the processing

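No paired analysis was possible because the diets share no replicate numbers. FOXO1 and CEBPD remained called in ULU vs Control with DESeq2, RLE and upper quartile factors, a mean CPM of at least 1 and the robust fit. The number of the 9 genes called there was 0 with edgeR on the 2 diets (FOXO1 adjusted p = 0.0952, CEBPD 0.0727), with no filter on low counts (0.0765 and 0.0526) and with the mitochondrial share as a covariate, and 0 to 2 when 1 library was left out. With that covariate the log2(fold change) of FBXO32, TRIM63, FOXO3 and KLF15 turned to 0.48, 0.0839, 0.084 and 0.0232 in UL vs Control, that of FBXO32, TRIM63 and FOXO3 to 0.59, 0.064 and 0.0427 in ULU vs Control, and that of FBXO32 to 0.11 in ULU vs UL, none of which passed. NR3C1 in ULU vs UL was -0.0186 with upper quartile factors. PDK4 lost its call with edgeR on the 2 diets (adjusted p = 0.0808), where its log2(fold change) was -1.69 beside -1.67. The causes were not tested.

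Over all tested genes, edgeR called 0 in UL vs Control, 423 in ULU vs Control (59 DEGs) and 5 in ULU vs UL (2 DEGs). DESeq2 on the 2 diets called 149 (11 DEGs), 825 (89) and 246 (4), and on all 17 libraries 152 (12), 1069 (105) and 252. The covariate gave 2 (2 DEGs), 8 (8) and 2. EdgeR on the 2 diets gave 111 (27) in ULU vs Control and 1 (1) in ULU vs UL. No filter gave 228 in ULU vs Control and 8 in ULU vs UL, where a mean CPM of at least 1 and the robust fit also gave 8. Without 1 library the counts were 0 to 16 (0 to 2 DEGs), 147 to 799 (30 to 121) and 1 to 7 (1 to 3), with 16 and 799 both without Control 25. Without 1 library FBXO32 ranged from -0.53 to 0.28 in UL vs Control and from -0.52 to 0.11 in ULU vs UL, FKBP5 in ULU vs UL from -0.12 to 0.26 and NR3C1 in ULU vs UL from -0.0948 to 0.0647. SOD2 (without UL 27), KLF2 and TGFBR1 (without Control 25), and HIBADH and BCKDHA (without Control 25 or ULU 42) passed in ULU vs Control (adjusted p = 0.0165 to 0.0461). The number of correlated pairs was 1, with 0 without the 2 farthest libraries and 2 when not centred by diet, and 7 of 27 most similar genes were also found with deviations from diet means. The limits are the 5 or 6 piglets per diet, the low reads of KLF15 and CEBPD, and the mitochondrial share, which moves with diet. Promoter motifs were not run.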

Other observations

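Of the branched-chain and other amino acid enzymes listed for this work as linked to KLF15, 8 of 11 could be tested. In ULU vs Control 1 of them rose and 0 fell, where 1.99% of all tested genes rose and 0.993% fell. This list, like the others, was chosen with earlier results of these data known. BCKDK, the kinase that inhibits branched-chain keto acid oxidation, rose from 80.3 ± 8.25 CPM in Control to 117.6 ± 8.33 in ULU, without overlap (log2(fold change) 0.55, SE 0.10, edgeR adjusted p = 0.0103, and 0.285 with the mitochondrial share as a covariate). HIBADH, of valine breakdown, and BCKDHA, a subunit of the keto acid dehydrogenase, had values of 0.45 and 0.45 (edgeR adjusted p = 0.0632 and 0.0699). The 8 genes had a median log2(fold change) of 0.34, beside -0.028 over all tested genes. Of the 8, 4 had an unadjusted p under 0.05, where 18.9% of all tested genes did. KLF15 itself, with 10 to 97 reads per library, had -0.79 (95% interval -1.71 to 0.14, edgeR adjusted p = 0.353), which did not pass. A link between KLF15 and these enzymes was not tested.

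Of 12 other C/EBP and KLF factors 0 passed in edgeR in ULU vs Control, with 2 at an unadjusted p under 0.05 (18.9% of all tested genes), and 11 had a value below 0 (53% of all tested genes), with a median of -0.47. KLF2 was at 2.04 ± 0.467 CPM in Control and 1.08 ± 0.282 in ULU (log2(fold change) -0.92, edgeR adjusted p = 0.0560, and 0.0464 with a mean CPM of at least 1). KLF11 (-1.20) had as little as 1 read in a ULU library, and KLF10 had -0.61, which was -1.05 without ULU 40, -0.34 without Control 23 and -1.43 with the mitochondrial share as a covariate. Of 12 receptors and ligands that restrain muscle growth 0 passed in edgeR, with 4 at an unadjusted p under 0.05, beside the same 18.9%. MSTN, myostatin, had a log2(fold change) of 0.59 (edgeR adjusted p = 0.226), and its receptor genes TGFBR1 and ACVR1B had -0.49 and 0.80 (edgeR adjusted p = 0.0639 and 0.0912). DESeq2 on all 17 libraries called KLF2, TGFBR1, ACVR1B, HIBADH and BCKDHA (adjusted p = 0.0165, 0.0252, 0.0420, 0.0167 and 0.0249).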
